A study of Mus musculus with 23 samples.

Results

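The negative arm of the circadian clock in mouse tibialis anterior muscle is described here through 6 genes: the period genes Per1, Per2 and Per3, the cryptochromes Cry1 and Cry2, and Ciart. The genes were chosen by name for their role, by a rule that uses no measured value but was written with earlier results of these data known. All 6 of 6 were among the 14500 genes of the deposited table, and all 6 passed the filter on low values (2 or more libraries with an FPKM of 1 or more), which left 12820 genes for testing. FPKM is fragments scaled to transcript length and to a total for the library, so levels of different genes can be set side by side. In this table that total was not the sum of the recovered reads, as given with the processing below.

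In the mammalian clock, the activators CLOCK (or its relative NPAS2) and ARNTL, also called BMAL1, bind E-box sequences and switch on the Per and Cry genes. The PER and CRY proteins build up, enter the nucleus together and inhibit CLOCK-ARNTL, which shuts off their own transcription. CIART, also called CHRONO, is a further repressor that binds ARNTL. Per1 and Per2 also respond directly to outside signals such as glucocorticoids and cAMP, and nerves and hormones act on skeletal muscle through such routes. D-box sites, bound by DBP, TEF, HLF and NFIL3, are known to act on Per genes, and retinoid-related orphan receptor sites, where REV-ERB proteins repress, are known to act on Cry1.

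The RE-RE mice carried Bmal1(stopFL/stopFL), in which a floxed stop blocks the Bmal1 gene until Cre removes it, together with Syt10-Cre(-/tg) and Hsa-Cre(-/tg). Hsa-Cre acts in skeletal muscle fibres, and Syt10-Cre acts in part of the brain, with the central clock in the suprachiasmatic nucleus among its sites. The wild-type mice carried none of these alleles, and no group with the stop alone or with Cre alone was analysed here. All mice were female C57BL/6 animals with free access to food. In 6-OHDA muscle, the tibialis was injected every 2 alternate days for 2 weeks with 50 mg/kg of 6-hydroxydopamine, which enters and destroys sympathetic nerve terminals, and was collected after a further 2 weeks. Sham muscle was not injected, so the 2 arms differ in the injections as well as in the agent. Collection was at zeitgeber time (ZT) 12, lights off, or ZT0, lights on.

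RE-RE 6-OHDA muscle gave 2 libraries at each time from mice of 12 to 18 weeks, and RE-RE sham muscle 2 at each time from mice of 10 to 11 weeks. Wild-type 6-OHDA muscle gave 4 libraries at each time from mice of 12 to 16 weeks. Wild-type sham muscle gave 3 libraries at ZT12 and 4 at ZT0 from mice of 12 to 18 weeks. The labels do not say which libraries share an animal, so p-values measure the spread between these 23 libraries. In whole muscle, fewer cells of a type and less RNA per cell cannot be told apart. Reads recovered from the steps of the deposited values came to 21139145 to 36061623 per library (median 28071412). The smallest and largest numbers of reads behind a member were 91 and 3923 for Per1, 47 and 1109 for Per2, 153 and 3100 for Per3, 210 and 1251 for Cry2, and 14 and 355 for Ciart. For Cry1 the recovered reads were whole within 0.1 read in only 2 of 23 libraries, against all 23 for the other 5 genes. The length behind its FPKM is therefore uncertain. That leaves its differences between libraries untouched, but its level beside other genes carries an unknown factor. All 8 skeletal muscle markers (Acta1, Ckm, Mb, Myh1, Myh2, Myh4, Tnnt3 and Pvalb) were detected in every library, with a summed level of 34472 to 65596 FPKM. Arntl, the gene controlled in RE-RE mice, averaged 9.24 ± 0.528 FPKM at ZT0 in RE-RE 6-OHDA and 12.7 ± 2.34 in RE-RE sham (SD, n = 2 each), 9.84 ± 0.734 in wild-type 6-OHDA and 14.2 ± 1.74 in wild-type sham muscle (SD, n = 4 each). At ZT12 Arntl ranged over 2.37 to 3.97 FPKM in RE-RE 6-OHDA against 1.23 to 1.73 in wild-type 6-OHDA muscle, and over 2.83 to 4.07 in RE-RE sham against 1.94 to 2.22 in wild-type sham muscle. The genotypes overlapped at ZT0, and at ZT12 RE-RE was higher without overlap.

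The windows of RefSeq sequence from 250 bases before to 50 bases after the annotated start (build GRCm38.p6) were available for 5 of the 6 genes, with 2 starts for Per1, giving 6 windows. They were searched on both strands for exact matches to the E-box CACGTG, its variant CACGTT, the D-box forms TTATGTAA and TTACGTAA, the cAMP response element TGACGTCA and its core TGACG, which lies inside the full element. The windows of Ciart, shown for its E-boxes, and Per3, shown for its D-boxes, come first, followed by Cry1 and the upstream window of Per1, which each hold an E-box. Capitals mark matches to either E-box form or to TTATGTAA, and AACGTG is a CACGTT read on the opposite strand. Each line runs 5′ to 3′ on the strand of the gene.
Ciart: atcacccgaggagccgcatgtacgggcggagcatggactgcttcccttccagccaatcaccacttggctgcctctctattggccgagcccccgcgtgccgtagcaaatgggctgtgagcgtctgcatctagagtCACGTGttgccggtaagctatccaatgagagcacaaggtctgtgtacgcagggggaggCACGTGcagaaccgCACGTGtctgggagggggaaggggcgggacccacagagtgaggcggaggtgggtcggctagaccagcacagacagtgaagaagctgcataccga
Per3: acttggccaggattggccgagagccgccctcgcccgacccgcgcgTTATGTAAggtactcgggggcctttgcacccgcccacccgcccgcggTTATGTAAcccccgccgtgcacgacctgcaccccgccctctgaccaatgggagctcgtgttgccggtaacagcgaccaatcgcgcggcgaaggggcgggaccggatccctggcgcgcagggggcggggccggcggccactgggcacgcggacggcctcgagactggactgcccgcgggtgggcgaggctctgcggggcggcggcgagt
Cry1: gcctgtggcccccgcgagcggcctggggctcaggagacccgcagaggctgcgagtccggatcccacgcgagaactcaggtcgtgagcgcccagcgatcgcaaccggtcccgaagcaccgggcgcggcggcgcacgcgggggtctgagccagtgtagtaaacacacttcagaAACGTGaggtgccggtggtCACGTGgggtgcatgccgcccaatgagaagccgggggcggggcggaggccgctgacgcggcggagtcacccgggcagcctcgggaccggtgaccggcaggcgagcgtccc
Per1: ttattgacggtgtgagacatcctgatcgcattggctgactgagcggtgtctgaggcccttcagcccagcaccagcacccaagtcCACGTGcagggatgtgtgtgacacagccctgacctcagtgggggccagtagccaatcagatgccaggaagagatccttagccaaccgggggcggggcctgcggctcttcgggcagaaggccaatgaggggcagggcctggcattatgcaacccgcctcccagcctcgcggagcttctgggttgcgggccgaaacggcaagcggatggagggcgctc
The Ciart window lies at chr3:95882179-95882478 and the Per3 window at chr4:151044616-151044915, both on the minus strand. The Cry1 window lies at chr10:85185005-85185304 on the minus strand and the Per1 window at chr11:69098699-69098998 on the plus strand.

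**Figure D1:**
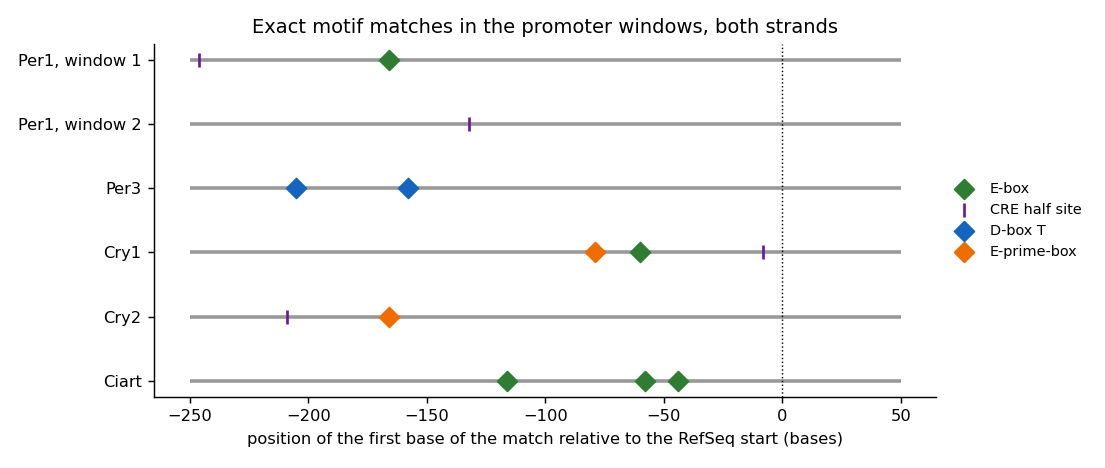
Position of each exact match in the 6 promoter windows, in bases from the RefSeq start (0, dotted line); grey bars are the windows, diamonds are E-box, E-prime-box (CACGTT) and D-box (TTATGTAA) matches, and ticks are matches to TGACG. The Ciart window holds 3 E-boxes, and the Per3 window holds 2 D-boxes and no E-box.

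The Ciart window held 3 CACGTG matches, which began 116, 58 and 44 bases before the start. Of 32851 mouse promoter windows of the same length, 7.15% held at least 1 such match and 29 windows, or 0.0883%, held 3 or more. The Per3 window held 2 TTATGTAA matches, 205 and 158 bases before the start, where 0.938% of windows held any and 7 windows, or 0.0213%, held 2 or more. The Cry1 window held CACGTG 60 bases and CACGTT 79 bases before the start, and the Per1 window held CACGTG 166 bases before it. The Cry2 window (chr2:92434020-92434319) held 1 CACGTT, 166 bases before the start. CACGTT occurred in 4.68% of windows. The core TGACG, found in 20.8% of windows, occurred in both Per1 windows, in Cry1 and in Cry2, and the full TGACGTCA, found in 1.79%, in none of the 6. TTACGTAA, present in 0.119% of all windows, was not in any of the 6. Such letters are a description of the windows and do not show that a factor binds there.

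The next question was how far each repressor differed between ZT12 and ZT0 in wild-type muscle, in which all 3 Per genes and Ciart were several-fold higher at ZT12 under both treatments. Per1 (ENSMUSG00000020893, chr11:69095217-69109960, GRCm38, plus strand), a period gene that is quickly induced by outside signals, had 17.9, 20.8, 15.9 and 16.1 FPKM at ZT12 in wild-type 6-OHDA muscle, against 2.64, 2.14, 1.64 and 1.54 FPKM at ZT0. Sham muscle of wild-type mice had 12.6, 17.2 and 21.1 FPKM at ZT12, against 2.80, 3.13, 3.39 and 5.36 FPKM at ZT0. No ZT12 library came near a ZT0 library under either treatment. The log2 difference was 3.17 ± 0.435 (SE) in 6-OHDA muscle, a 9.01-fold rise with an adjusted p of 0.00124, and 2.22 ± 0.470 in sham muscle, a 4.66-fold rise with an adjusted p of 0.032 (limma, Benjamini-Hochberg over all genes tested, here and below). The sham call for Per1 was lost when any of 6 of the 7 wild-type sham libraries (all but replicate 4 at ZT0) was left out, with differences from 2.05 to 2.42.

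Per2 (ENSMUSG00000055866, chr1:91415982-91459324, minus strand), a period gene whose loss disrupts rhythms in mice, had 7.07, 5.57, 5.02 and 6.27 FPKM at ZT12 in wild-type 6-OHDA muscle, against 1.38, 0.70, 1.01 and 0.729 FPKM at ZT0. Wild-type sham values were 6.34, 5.30 and 5.38 FPKM at ZT12, against 0.755, 0.555, 0.611 and 0.522 FPKM at ZT0. Every ZT12 library was above 5 FPKM and every ZT0 library below 1.5 FPKM. The log2 difference was 2.68 ± 0.304 in 6-OHDA muscle (6.40-fold, adjusted p = 0.000122) and 3.20 ± 0.328 in sham muscle (9.21-fold, adjusted p = 4.23e-05), the largest of the 6 genes in sham muscle.

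Per3 (ENSMUSG00000028957, chr4:151003652-151044665, minus strand), a period gene that is dispensable for rhythms in mice, had 9.25, 8.19, 8.66 and 10.7 FPKM at ZT12 in wild-type 6-OHDA muscle, against 2.28, 2.19, 1.40 and 2.63 FPKM at ZT0. The wild-type sham libraries had 10.3, 9.68 and 11.3 FPKM at ZT12, against 2.61, 1.57, 2.86 and 1.96 FPKM at ZT0. The ranges of the 2 treatments overlapped at both times, and the times were far apart. The log2 difference was 2.14 ± 0.366 in 6-OHDA muscle (4.40-fold, adjusted p = 0.00784) and 2.24 ± 0.396 in sham muscle (4.74-fold, adjusted p = 0.00801). In sham muscle the call was lost without wild-type sham replicate 7 (ZT12), with leave-one-out differences of 2.09 to 2.37.

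Ciart (ENSMUSG00000038550, chr3:95878503-95882251, minus strand), the repressor of ARNTL with 3 E-boxes in its window above, had 3.41, 2.59, 4.48 and 5.20 FPKM at ZT12 in wild-type 6-OHDA muscle, against 0.654, 0.708, 0.501 and 0.507 FPKM at ZT0. For wild-type sham muscle the levels were 3.0, 3.83 and 5.18 FPKM at ZT12, against 0.957, 0.873, 1.08 and 1.33 FPKM at ZT0. The ZT12 libraries spread over much the same range under both treatments. At ZT0 the mean was 0.592 FPKM in 6-OHDA and 1.06 FPKM in sham muscle on the deposited scale. The log2 difference was 2.67 ± 0.259 in 6-OHDA muscle (6.37-fold, adjusted p = 1.83e-05) and 1.89 ± 0.280 in sham muscle (3.70-fold, adjusted p = 0.00215).

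The cryptochromes differed far less between the times, and Cry1 pointed the other way. Cry2 (ENSMUSG00000068742, chr2:92403646-92434043, minus strand), a partner of PER in the repressor complex, had 5.47, 5.91, 4.64 and 6.42 FPKM at ZT12 in wild-type 6-OHDA muscle, against 3.35, 3.85, 3.05 and 3.08 FPKM at ZT0. The sham libraries of this genotype had 5.46, 5.09 and 7.03 FPKM at ZT12, against 3.91, 2.58, 2.82 and 2.94 FPKM at ZT0. All ZT12 libraries stood above all ZT0 libraries of their treatment. Cry2 differed by 0.75 ± 0.196 in 6-OHDA muscle (1.68-fold, adjusted p = 0.11) and by 0.94 ± 0.212 in sham muscle (1.92-fold, adjusted p = 0.0468). The sham call sits at the threshold: it was kept without each of 7 of the 23 libraries and lost without each of the other 16, with differences of 0.80 to 1.06. Those 16 were all wild-type libraries but sham replicate 1 (ZT0), and both RE-RE 6-OHDA libraries at ZT12. It was also lost with no filter, own totals, the compared groups alone, age in the fit and limma-voom (adjusted p = 0.0514 to 0.107). The difference in 6-OHDA muscle passed under quantile normalization, with the compared groups or the wild-type libraries fitted alone, with weights by genotype and without the 3 RE-RE libraries named below (adjusted p = 0.00664 to 0.0377).

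Cry1 (ENSMUSG00000020038, chr10:85131700-85185064, minus strand), the cryptochrome that is known to peak late in the cycle, had 5.51, 4.26, 4.73 and 5.19 FPKM at ZT12 in wild-type 6-OHDA muscle, against 5.53, 6.00, 5.84 and 6.33 FPKM at ZT0. In wild-type sham muscle it had 5.85, 6.07 and 6.11 FPKM at ZT12, against 7.98, 7.56, 8.62 and 7.85 FPKM at ZT0. The ZT12 libraries were the lower ones in each treatment, with almost no gap in 6-OHDA muscle and a gap of over 1 FPKM in sham muscle. The log2 differences of -0.27 ± 0.104 in 6-OHDA muscle (adjusted p = 0.486) and -0.41 ± 0.113 in sham muscle (adjusted p = 0.137) did not pass the test with the spread pooled over both genotypes. In sham muscle the difference passed with the wild-type libraries fitted alone (adjusted p = 0.0337), with weights that let the spread differ by genotype (adjusted p = 0.0123) or without the 3 RE-RE libraries named below (adjusted p = 0.0334).

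**Figure D2:**
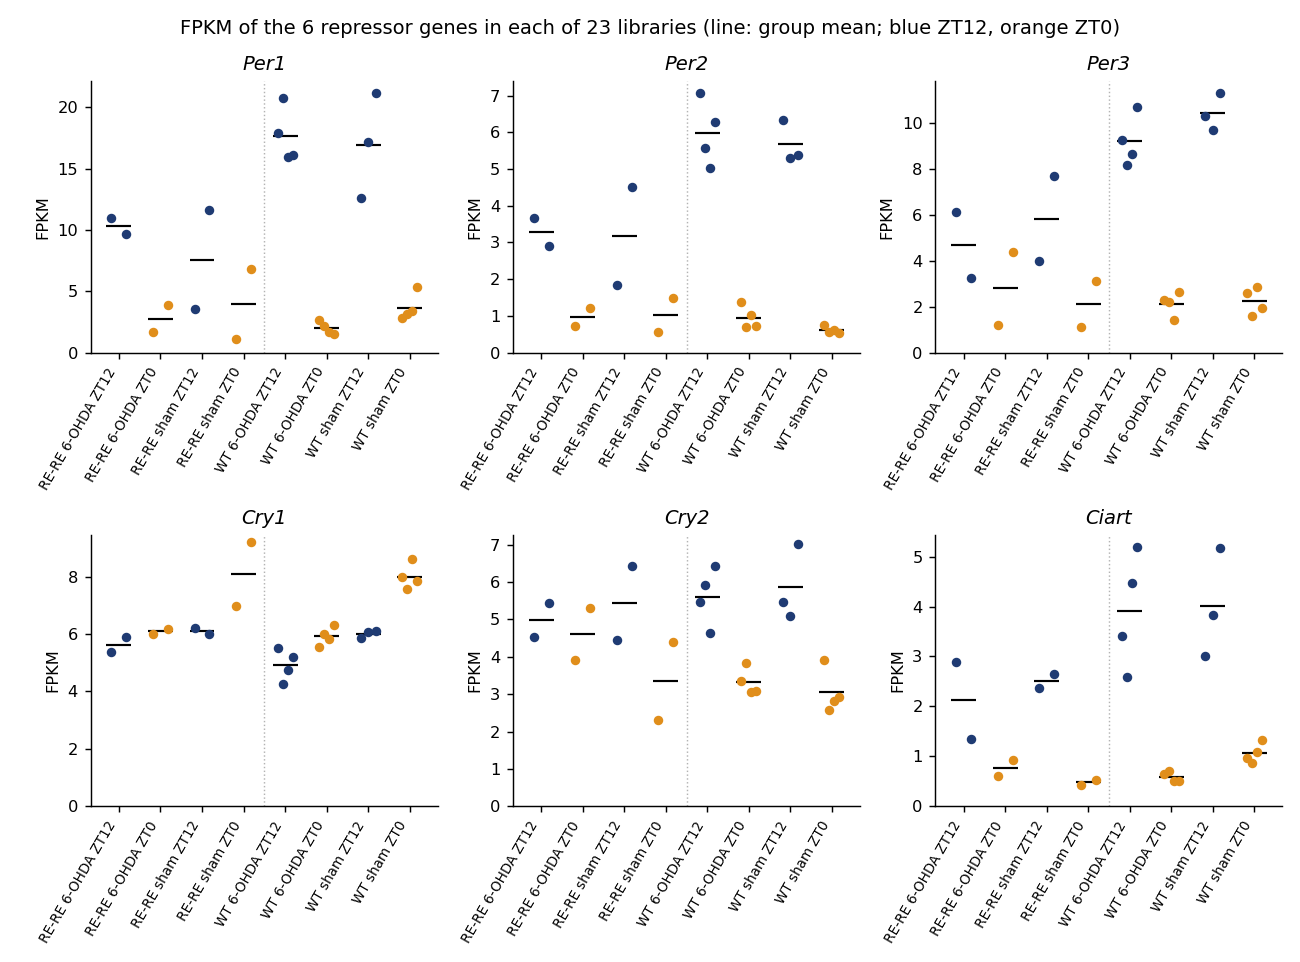
FPKM (linear axis from 0) of each gene in each of 23 libraries, by genotype, treatment and time; points are libraries (blue ZT12, orange ZT0) and lines are group means. In wild-type muscle Per1, Per2, Per3, Cry2 and Ciart lie higher at ZT12 than at ZT0 with no overlap, and Cry1 lies lower. RE-RE pairs lie far apart in some groups, such as Per1 in sham muscle, and close together in others, such as Ciart in sham muscle.

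Counted over the set, 4 of 6 genes were called in wild-type 6-OHDA muscle, all higher at ZT12, where 0.671% of all genes tested were called. In wild-type sham muscle 5 of 6 were called, all higher, against 0.647% of all genes. The median difference of the 6 was 2.41 in 6-OHDA and 2.06 in sham muscle, against a median size of 0.16 and 0.14 over all genes regardless of sign. The libraries of the 2 times did not overlap for 6 of 6 genes in wild-type 6-OHDA and in wild-type sham muscle, where 7.29% and 12.2% of all genes tested did not overlap. The values of every library are set out in the plot of FPKM by group.

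In RE-RE muscle Ciart was the only member called, and only in sham muscle. The 3 Per genes had higher means at ZT12, with wide gaps between the 2 libraries of many groups. Ciart had 2.90 and 1.35 FPKM at ZT12 in RE-RE 6-OHDA muscle, against 0.611 and 0.922 FPKM at ZT0. There the difference of 1.39 ± 0.367 had an adjusted p of 0.129. The RE-RE sham libraries had 2.37 and 2.66 FPKM at ZT12, against 0.431 and 0.528 FPKM at ZT0. The 2 sham libraries of each time lay close together. The difference was 2.37 ± 0.367 (5.17-fold, adjusted p = 0.00997), which makes 1 of 6 members called where 0.0546% of all genes tested were. This call was lost without RE-RE sham replicate 1 (ZT0) or 3 (ZT12), where the difference was 2.23 and 2.45. It was also lost with the RE-RE libraries fitted alone or with weights by genotype (adjusted p = 1 in both), and with quantile normalization (0.128), log2(FPKM + 1) (0.0712) and limma-voom (0.111).

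Per1 had 11.0 and 9.69 FPKM at ZT12 in RE-RE 6-OHDA muscle, against 1.69 and 3.86 FPKM at ZT0, a difference of 2.01 ± 0.616 (adjusted p = 0.185). In RE-RE sham muscle Per1 had 3.53 and 11.6 FPKM at ZT12, against 1.13 and 6.83 FPKM at ZT0, a difference of 1.2 ± 0.616 (adjusted p = 1). The 6-OHDA libraries were separated by time and the sham libraries overlapped. Per2 had 3.66 and 2.91 FPKM at ZT12 in RE-RE 6-OHDA muscle, against 0.736 and 1.23 FPKM at ZT0, a difference of 1.77 ± 0.430 (adjusted p = 0.105). In RE-RE sham muscle Per2 had 1.83 and 4.51 FPKM at ZT12, against 0.559 and 1.5 FPKM at ZT0, a difference of 1.64 ± 0.430 (adjusted p = 0.329). Per2 was the period gene whose ZT12 and ZT0 libraries stayed apart under both treatments. Per3 had 6.14 and 3.25 FPKM at ZT12 in RE-RE 6-OHDA muscle, against 1.2 and 4.40 FPKM at ZT0, and these overlapped (0.95 ± 0.518, adjusted p = 0.431). The RE-RE sham libraries held 3.97 and 7.69 FPKM at ZT12, against 1.11 and 3.14 FPKM at ZT0, a difference of 1.56 ± 0.518 (adjusted p = 0.592).

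Among the cryptochromes, Cry1 had 5.38 and 5.89 FPKM at ZT12 in RE-RE 6-OHDA muscle, against 6.00 and 6.18 FPKM at ZT0 (-0.11 ± 0.147, adjusted p = 0.738). In RE-RE sham muscle Cry1 had 6.19 and 6.01 FPKM at ZT12, against 6.98 and 9.21 FPKM at ZT0 (-0.39 ± 0.147, adjusted p = 0.773). Cry1 was the lower at ZT12 without overlap in each of the 4 combinations of genotype and treatment, although none passed the test and the RE-RE 6-OHDA difference turned positive when libraries were scaled by their own totals (0.12). Cry2 had 4.53 and 5.44 FPKM at ZT12 in RE-RE 6-OHDA muscle, against 3.93 and 5.31 FPKM at ZT0, which overlapped (0.12 ± 0.277, adjusted p = 0.868). RE-RE sham muscle had 4.46 and 6.42 FPKM at ZT12, against 2.31 and 4.41 FPKM at ZT0, with a difference of 0.74 ± 0.277 (adjusted p = 0.769). No member of 6 was called in RE-RE 6-OHDA muscle, where 0.109% of all genes were called by limma, and 3 members and 1700 of all genes had an unadjusted p under 0.05 there. The libraries of the 2 times did not overlap for 4 of 6 members in RE-RE 6-OHDA and 5 of 6 in RE-RE sham muscle, where 32.8% and 14.4% of all genes tested did not overlap.

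On the log2 scale and pooled over groups, RE-RE libraries lay farther from their group means than wild-type ones, and the members shared this. For Per1 the residual SD of log2 FPKM was 1.18 in RE-RE against 0.340 in wild-type groups, for Per2 0.734 against 0.293, and for Per3 0.965 against 0.305. For Cry1 it was 0.150 in RE-RE against 0.104 in wild-type groups, for Cry2 0.417 against 0.216, and for Ciart 0.455 against 0.343. Over all genes tested the median residual SD was 0.451 for RE-RE and 0.216 for wild-type groups, so the errors printed for RE-RE, which pool both, are too small. In each of the 4 RE-RE groups the library with more Per1 also had more Per2, more Per3 and more Ciart, and in 3 of 4 it had more Cry2. For Cry1 this held in 2 of 4. The low libraries of RE-RE sham, replicate 1 at ZT0 and replicate 3 at ZT12, also had the most genes at an FPKM of 0 (520 and 463, against 261 to 428 in the rest) and the highest shares of reads from the mitochondrial genome (27.6% and 23.1%, against 7.31% to 21.2%). The part of these measures in the spread was not tested. In the 15 wild-type libraries the deviations of the members from their group means correlated between -0.25 and 0.50 (Pearson r over the 15 pairs of members, libraries shared).

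**Figure D3:**
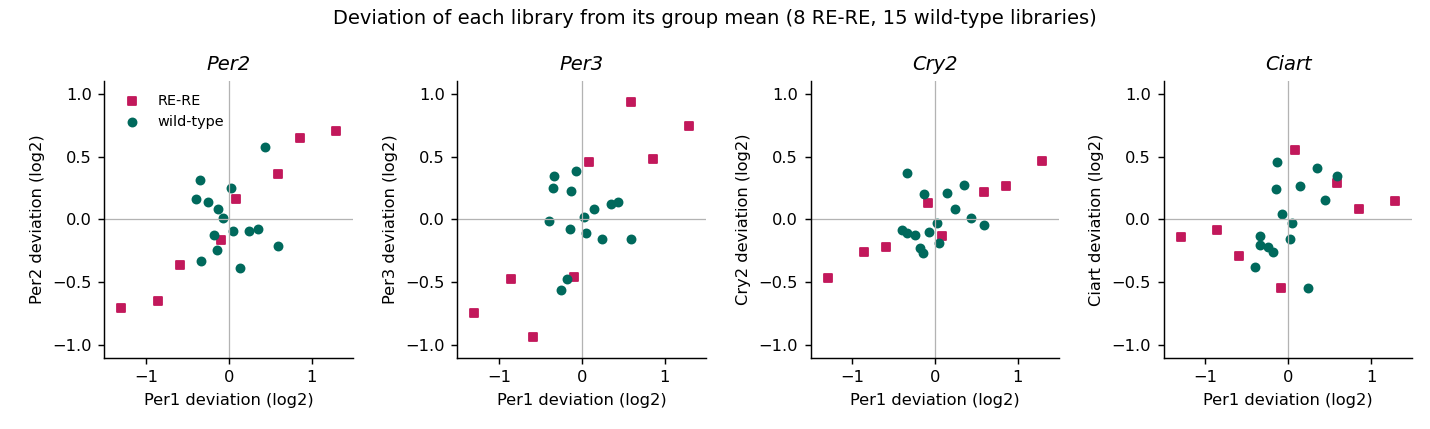
Deviation of log2 FPKM from the group mean for Per1 (x axis) against Per2, Per3, Cry2 or Ciart (y axis) in 8 RE-RE (squares) and 15 wild-type libraries (circles); RE-RE groups have 2 libraries, so their points come in mirrored pairs. The RE-RE points reach past 1 on the Per1 axis, and the wild-type points stay within 0.6.

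With 3 RE-RE libraries left out that had, among RE-RE libraries, the highest ratio of recovered reads to the FPKM unit and the most genes at 0 (6-OHDA replicate 2 and sham replicates 1 and 3), a choice made after the data were seen, the RE-RE time differences in 6-OHDA muscle were 2.60 for Per1 (adjusted p = 0.00517) and 2.13 for Per2 (adjusted p = 0.0124). In that fit 3 groups rest on 1 library each, which is assumed to vary like the others. The Ciart difference in RE-RE sham muscle was then 2.31 with an adjusted p of 0.166.

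Whether the time difference itself changed with treatment or genotype was tested as a difference of differences, and no member passed in any of the 4 tests with all libraries kept. For the change with 6-OHDA in wild-type muscle, Ciart had 0.78 ± 0.382 and Per1 0.95 ± 0.641, both toward a larger time difference after 6-OHDA, and Per2 had -0.52 ± 0.447 (adjusted p = 1 for all 6). The other 3 had -0.11 for Per3, 0.14 for Cry1 and -0.19 for Cry2. There 0 of 6 members and 0.0078% of all genes were called, and 0 members had an unadjusted p under 0.05. For the change with 6-OHDA in RE-RE muscle, the largest were -0.98 ± 0.519 for Ciart, 0.81 ± 0.871 for Per1 and -0.62 ± 0.392 for Cry2 (adjusted p = 0.962 each). Per3 had -0.61, Cry1 0.28 and Per2 0.13, and 0 of 6 members were called, against 0.0156% of all genes.

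Between RE-RE and wild-type sham muscle, the Per2 time difference was lower by 1.57 ± 0.540 on the log2 scale (95% interval -2.70 to -0.43, unadjusted p = 0.00942, adjusted p = 1). The changes of the other members there were -1.02 for Per1, -0.68 for Per3, 0.02 for Cry1, -0.20 for Cry2 and 0.48 for Ciart. None of the 6 was called, and 0.0156% of all genes were. Between RE-RE and wild-type 6-OHDA muscle, the change was toward a smaller time difference in RE-RE muscle for all 6 members, at -1.29 ± 0.449 for Ciart (adjusted p = 0.365), -1.18 ± 0.634 for Per3, -1.16 ± 0.754 for Per1, -0.91 ± 0.526 for Per2 and -0.63 ± 0.339 for Cry2 (adjusted p = 0.434 to 0.493). For Cry1, whose time difference is below 0 in both genotypes, the change was 0.16 ± 0.181 (adjusted p = 0.698). Without RE-RE 6-OHDA replicate 1 (ZT0), which leaves 1 library in that group, the change was -2.12 for Per3 and -1.58 for Ciart. With all libraries kept, none of the 6 was called, with 0.0546% of all genes called. With intervals of this width, neither equal nor unequal time differences were shown.

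**Figure D4:**
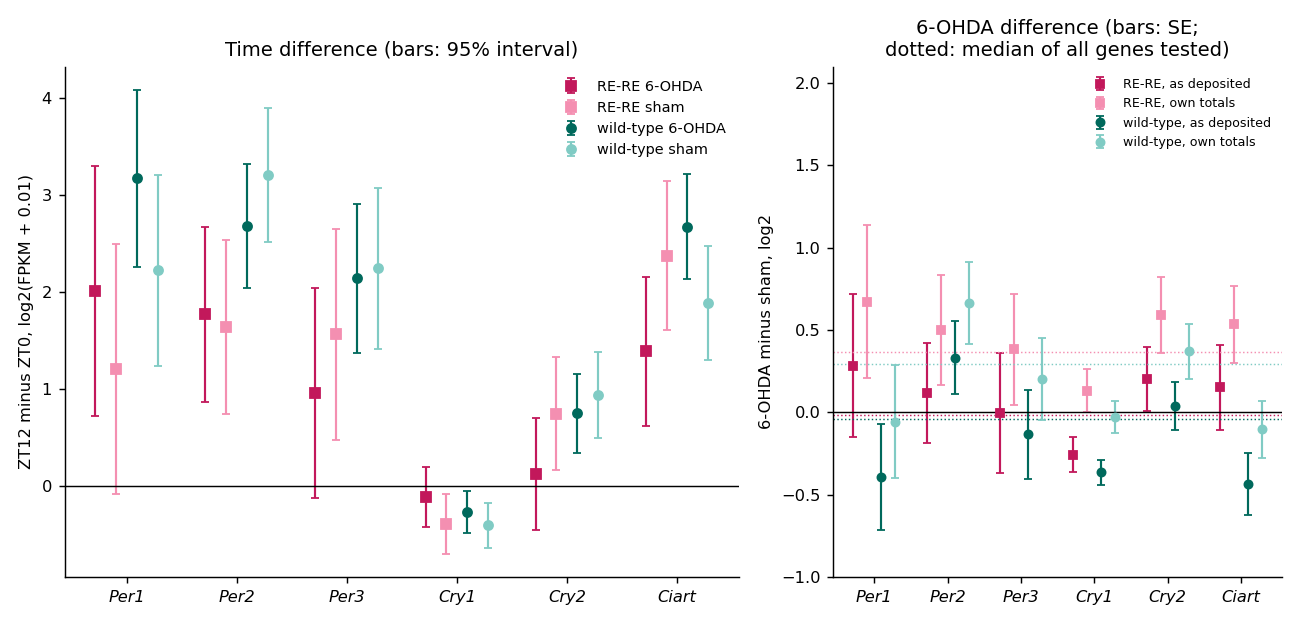
Left, ZT12 minus ZT0 on the log2(FPKM + 0.01) scale for each gene in RE-RE 6-OHDA, RE-RE sham, wild-type 6-OHDA and wild-type sham muscle, with 95% intervals; right, 6-OHDA minus sham averaged over both times, with SE, for values as deposited and scaled by own totals, dotted lines being the median of all genes tested. Cry1 is the only gene with differences below 0 on the left, and on the right scaling by own totals moves all genes up together.

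Ratios taken within a library do not depend on how libraries were scaled. Summed Per over summed Cry FPKM was 3.12, 3.40, 3.16 and 2.84 at ZT12 in wild-type 6-OHDA muscle, against 0.708, 0.511, 0.456 and 0.520 at ZT0. In wild-type sham muscle it was 2.58, 2.88 and 2.88 at ZT12, against 0.519, 0.518, 0.60 and 0.727 at ZT0. Per transcripts thus outnumbered Cry transcripts in every wild-type library at ZT12 and in none at ZT0, a statement that holds only as far as the length of Cry1 does. In RE-RE 6-OHDA muscle the ratio was 2.1 and 1.40 at ZT12, against 0.365 and 0.825 at ZT0, and in RE-RE sham muscle 0.875 and 1.91 at ZT12, against 0.301 and 0.842 at ZT0. All 4 RE-RE libraries at ZT12 lay below all 7 wild-type libraries at ZT12. The summed Cry level barely moved, with group means of 9.26 to 11.9 FPKM, so the ratio followed the summed Per level, whose group means were 16.6 to 33.1 FPKM at ZT12 and 5.07 to 7.13 FPKM at ZT0.

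Cry1 over Cry2 was 1.01, 0.721, 1.02 and 0.807 at ZT12 in wild-type 6-OHDA muscle, against 1.65, 1.56, 1.91 and 2.05 at ZT0. In wild-type sham muscle it was 1.07, 1.19 and 0.870 at ZT12, against 2.04, 2.93, 3.05 and 2.67 at ZT0. The balance between the cryptochromes shifted toward Cry2 at ZT12 in every wild-type library. In RE-RE 6-OHDA muscle the ratio was 1.19 and 1.08 at ZT12, against 1.53 and 1.16 at ZT0, where the times overlapped, and in RE-RE sham muscle 1.39 and 0.937 at ZT12, against 3.02 and 2.09 at ZT0. At ZT0 the mean ratio was 1.34 with 6-OHDA and 2.55 in sham for RE-RE muscle (n = 2 each), without overlap, and 1.79 with 6-OHDA and 2.68 in sham for wild-type muscle (n = 4 each), where 1 library of each treatment overlapped at 2.05 and 2.04. Per1 made up 48.7% to 60.2% of the summed Per FPKM at ZT12 in wild-type 6-OHDA muscle, against 31.4% to 42.6% at ZT0, and in wild-type sham muscle 43.1% to 55.9% at ZT12, against 45.4% to 68.3% at ZT0. Per2 made up 16.1% to 20.7% at ZT12 in wild-type 6-OHDA and 14.2% to 21.7% in wild-type sham muscle, against 13.9% to 24.9% and 6.66% to 12.3% at ZT0. Per2 over Arntl, a ratio of a repressor to an activator of the loop, averaged 4.14 at ZT12 in wild-type 6-OHDA and 2.81 in wild-type sham muscle, against 0.0977 and 0.0435 at ZT0. It averaged 1.14 at ZT12 in RE-RE 6-OHDA and 0.877 in RE-RE sham muscle, against 0.107 and 0.0777 at ZT0.

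**Figure D5:**
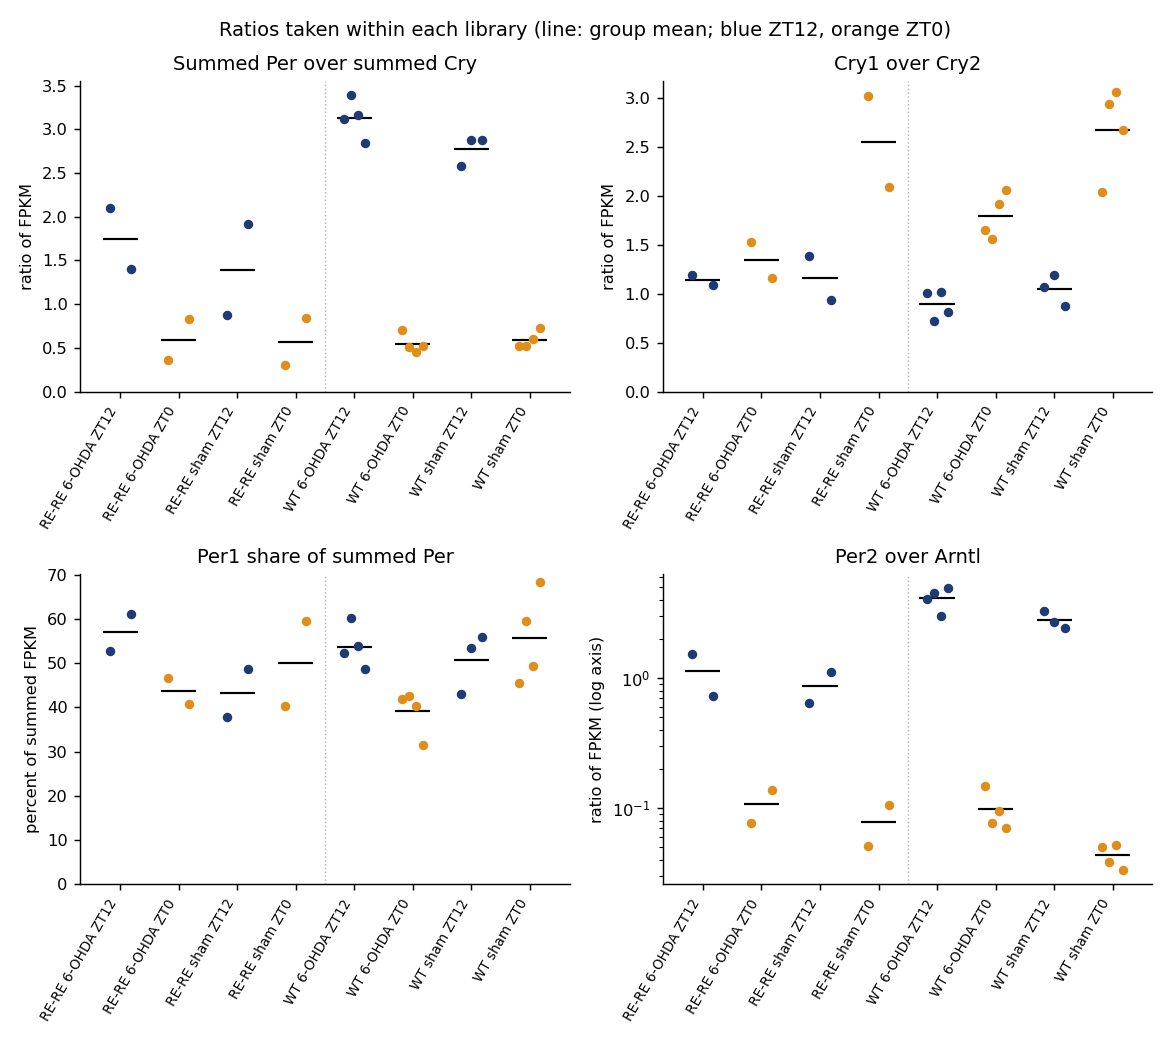
Summed Per over summed Cry, Cry1 over Cry2, the Per1 share of summed Per (linear axes from 0) and Per2 over Arntl (log axis) in each library, by genotype, treatment and time; points are libraries (blue ZT12, orange ZT0) and lines are group means. The RE-RE libraries at ZT12 lie between 0.875 and 2.1 in the Per over Cry panel, below the wild-type ones at 2.58 to 3.40.

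The order of the 6 levels followed the same shifts. In wild-type muscle at ZT12 Per1 was highest and Per3 next, each above the following gene in every library and with no overlap. Below them Cry1, Cry2 and Per2 overlapped with their neighbours in 6-OHDA muscle, and Cry1 and Cry2 with theirs in sham muscle. Ciart had the lowest mean in both treatments, without overlap in sham muscle, where Per2 stood above it in 3 of 3 libraries. At ZT0 Cry1 was highest in every group without overlap, subject to the length noted above. Ciart was lowest in wild-type 6-OHDA muscle and overlapped with Per2, and in wild-type sham muscle Per2 was lowest, below Ciart in 4 of 4 libraries. In RE-RE muscle the middle of the order was not resolved, and Ciart was lowest in all 4 groups, overlapping with Per2 in 2 of them.

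The comparison of 6-OHDA with sham muscle gives the level of each repressor as a mean of both times. The agent and its injections cannot be told apart here, and no measure of denervation was analysed. On the deposited scale Cry1 fell in wild-type muscle, by 0.36 ± 0.0767 on the log2 scale (1.29-fold, adjusted p = 0.00264), and no other member passed. The wild-type Cry1 values given above did not overlap between the treatments at either time, as for 21.1% of all genes in 1 direction, with means of 4.92 ± 0.545 FPKM in 6-OHDA (SD, n = 4) and 6.01 ± 0.140 in sham muscle (SD, n = 3) at ZT12, and of 5.92 ± 0.330 and 8.0 ± 0.445 (SD, n = 4 each) at ZT0. The fall depended on scaling. With libraries scaled by their own totals of recovered reads the Cry1 difference was -0.03 (adjusted p = 0.826), because that scaling puts the median of all genes at 0.29 in place of -0.04; relative to the median, Cry1 was at -0.32 under both. The other members had -0.39 ± 0.320 for Per1, 0.33 ± 0.224 for Per2, -0.13 ± 0.270 for Per3, 0.04 ± 0.144 for Cry2 and -0.44 ± 0.191 for Ciart (adjusted p = 0.082 for Ciart and 0.257 to 0.864 for the rest). Under own totals Per2 reached 0.66 (adjusted p = 0.0369), and relative to the median it was at 0.37 under both scalings. In this comparison 1 of 6 members was called, where 34.8% of all genes were.

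In RE-RE muscle the 6-OHDA differences were -0.26 ± 0.104 for Cry1 (adjusted p = 0.0691), 0.28 ± 0.435 for Per1, 0.12 ± 0.304 for Per2, 0.20 ± 0.196 for Cry2 and 0.15 ± 0.259 for Ciart (adjusted p = 0.423 to 0.779), and that of Per3 was -0.0032 ± 0.366 (adjusted p = 0.996). Cry1 was lower in the 6-OHDA libraries than in the sham libraries at both times, without overlap on the deposited scale, as for 12.9% of all genes in 1 direction, and its sign turned under own totals (0.13), where the median of all genes was at 0.37. None of the 6 was called, and 26.9% of all genes were. With the RE-RE libraries fitted alone, 2 genes were called in place of 3446, and 3 with age in the fit. The RE-RE 6-OHDA mice were 12 to 18 weeks old and the RE-RE sham mice 10 to 11. Without the 3 libraries named above, Per1 had -1.09 (adjusted p = 0.0126), Per2 -0.74 (0.0441), Per3 -1.08 (0.0171) and Cry1 -0.36 (0.0314), so the direction for Per1 and Per2 rests on those libraries. Without RE-RE sham replicate 2 (ZT0) alone, which leaves 1 library in that group, Per1 was at 0.93, the other way.

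Markers of several cell types differed between the treatments, where 34.8% of all genes tested were called in wild-type and 26.9% in RE-RE muscle. The RE-RE calls rest on the spread pooled over both genotypes, since 2 genes of all tested were called with the RE-RE libraries fitted alone. In wild-type muscle 5 of 6 tested macrophage markers, 4 of 4 fibroblast markers and 4 of 4 markers of regenerating muscle (Myh3, Myh8, Myog and Mymk) were higher after 6-OHDA. So were 2 of 3 tested adipocyte, 2 of 4 Schwann cell and 1 of 4 endothelial markers, while 2 of 3 erythroid markers were lower, and of 8 muscle markers 2 were higher and 4 lower. Summed macrophage markers were 97.1 to 383 FPKM in wild-type 6-OHDA and 16.1 to 41.3 FPKM in wild-type sham muscle, and summed regeneration markers 24.1 to 139 and 8.15 to 17.1 FPKM. In RE-RE muscle 4 of 4 regeneration markers, 2 of 4 endothelial markers and 1 of 8 muscle markers were higher, 1 of 3 erythroid markers was lower, and none of the macrophage, fibroblast, adipocyte or Schwann cell markers was called. Summed macrophage markers were 11.9 to 215 FPKM in RE-RE 6-OHDA and 18.9 to 57.2 FPKM in RE-RE sham muscle, and summed regeneration markers 8.92 to 112 and 3.24 to 8.63 FPKM. Of the defining markers only Lep and Mymk were at 0 in any library. The part of these cells in the member values was not tested.

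Comparing RE-RE with wild-type muscle as a mean of both times, Ciart fell in RE-RE sham muscle, by 0.88 ± 0.231 on the log2 scale (1.84-fold, adjusted p = 0.0299). It had 2.37 and 2.66 FPKM at ZT12 in RE-RE sham muscle, against 3.0 to 5.18 FPKM in wild-type sham muscle, and 0.431 and 0.528 FPKM at ZT0, against 0.873 to 1.33 FPKM. The genotypes did not overlap at either time, as for 8.05% of all genes tested in 1 direction at both times. The call was lost without RE-RE sham replicate 1 (ZT0), RE-RE sham replicate 3 (ZT12) or wild-type sham replicate 7 (ZT12), with differences of -0.97 to -0.77, and the RE-RE sham mice were 10 to 11 weeks old and the wild-type sham mice 12 to 18. With age in the fit the difference was -1.1 (adjusted p = 0.105), and the call was also lost with log2(FPKM + 1), quantile normalization, the compared groups alone, weights by genotype and without the 3 RE-RE libraries (adjusted p = 0.0528 to 0.212).

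Per1 had -0.86 ± 0.387 (adjusted p = 0.136) and Per3 -0.57 ± 0.326 (adjusted p = 0.229) in RE-RE against wild-type sham muscle, while Per2 (-0.19 ± 0.270), Cry1 (0.01 ± 0.0928) and Cry2 (-0.02 ± 0.174) were nearer 0 (adjusted p = 0.643 to 0.948). Without RE-RE sham replicate 2 (ZT0) Per1 was at -1.51 and Per3 at -0.94, and without replicate 4 (ZT12) Per1 was at -1.29. Each of these fits leaves 1 library in a group. Without the 3 RE-RE libraries named above the values were 0.21 for Per1 and 0.04 for Per3. In sham muscle 1 of 6 members was called, where 9.91% of all genes were called, a total of 1271, or 5 with weights by genotype. At ZT12 taken alone every RE-RE library had less Per1, Per2 and Per3 than every wild-type library of the same treatment. Counted over the 6 genes, 3 were lower without overlap in 6-OHDA muscle and 4, with Ciart, in sham muscle, where 21.9% and 25.3% of all genes tested did not overlap in either direction. The ratios of the means there were 0.584 for Per1, 0.548 for Per2 and 0.510 for Per3 in 6-OHDA muscle, and 0.446, 0.559 and 0.559 in sham muscle. At ZT0 the genotypes overlapped for all 3. In 6-OHDA muscle the mean differences of RE-RE and wild-type were -0.19 ± 0.377 for Per1, -0.41 ± 0.263 for Per2, -0.44 ± 0.317 for Per3, 0.12 ± 0.0903 for Cry1, 0.15 ± 0.170 for Cry2 and -0.29 ± 0.225 for Ciart (adjusted p = 0.697 to 0.931). There 0 of 6 members were called, with 0.226% of all genes called, and 0 members had an unadjusted p under 0.05.

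Of the genes that act with the repressors, 3 of 4 activators were called lower at ZT12 in wild-type 6-OHDA muscle: Arntl (-2.74 ± 0.169), Npas2, a CLOCK relative (-3.38 ± 0.366), and Clock (-0.80 ± 0.173). Arntl (-2.80), Npas2 (-3.41) and Clock (-1.08) were also called lower in wild-type sham muscle. Arntl alone was called in RE-RE muscle, at -1.59 ± 0.239 with 6-OHDA and -1.88 ± 0.239 in sham. In RE-RE against wild-type muscle Npas2 was called higher, by 2.32 ± 0.317 with 6-OHDA and by 2.1 ± 0.325 in sham, and Clock in sham (0.65 ± 0.154, adjusted p = 0.0204). The change of the Npas2 time difference with genotype was called in 6-OHDA muscle (3.62 ± 0.633, adjusted p = 0.0336). With 6-OHDA Clock was lower in RE-RE (-0.68) and Arntl in wild-type muscle (-0.50). Among 8 tested REV-ERB, ROR and D-box factors, the D-box activators Dbp (3.29 ± 0.306), Hlf (2.39 ± 0.442) and Tef (0.99 ± 0.186) were called higher and none lower at ZT12 in wild-type 6-OHDA muscle. In wild-type sham muscle Dbp (3.51) and Tef (1.04) were called higher and Nfil3, a D-box repressor, lower (-1.48), and in RE-RE muscle Dbp alone was called, in sham (2.55 ± 0.433). After 6-OHDA Rora (-1.16), Hlf (-1.77) and Nr1d2 (-0.81) were among those lower in RE-RE muscle, and Hlf (-0.88) and Rora (-0.53) in wild-type muscle. Nr1d1, which encodes REV-ERB alpha, was lower in RE-RE sham than wild-type sham muscle (-1.42 ± 0.296, adjusted p = 0.0123). For genotype in sham muscle 9.91% of all genes, or 1271, were called, but 5 with weights by genotype and 67 with age in the fit. The RE-RE sham mice were 10 to 11 weeks old and the wild-type sham mice 12 to 18. The genes named for that comparison, here and in the next paragraph, were not examined under those fits.

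Of 15 tested kinases, ubiquitin ligases and deubiquitinases that act on PER and CRY proteins, Usp2, a deubiquitinase, was the only one called for time, at 1.49 ± 0.241 in wild-type 6-OHDA and 1.48 ± 0.260 in wild-type sham muscle, and none was called in RE-RE muscle. On the deposited scale with 6-OHDA, Prkaa2 (-0.91), Csnk2a1 (-0.52) and Skp1a (-0.59) were among those lower in RE-RE muscle. In wild-type muscle Usp7 (-0.26) and Skp1a (-0.51) were lower and Ddb1 (0.48) higher. In this list 4 of 15 were called lower in RE-RE muscle, and 3 lower and 1 higher in wild-type muscle. Over all genes 26.9% and 34.8% were called, but with the RE-RE libraries fitted alone only 2 genes. Own totals put the median of all genes at 0.37 in RE-RE and 0.29 in wild-type muscle. The 6-OHDA differences here and in the paragraph above were not examined under that scaling. Of 8 other repressors and partners, Bhlhe41, a repressor that competes for E-boxes, was the only one called for time, at 0.86 ± 0.151 in wild-type 6-OHDA and 0.86 ± 0.163 in wild-type sham muscle. With 6-OHDA Ddx5 was lower in wild-type muscle (-0.43), and in RE-RE sham against wild-type sham muscle Timeless (-0.85) and Bhlhe41 (-0.45) were lower. Among 9 tested CREB target genes none was called for time in any of the 4 arms, and after 6-OHDA Fos (1.12) and Junb (0.85) were higher in wild-type muscle, and Junb (1.35) was higher and Ppargc1a (-0.68) lower in RE-RE muscle. Dusp1 was lower in RE-RE sham than wild-type sham muscle (-0.65). Among 10 glucocorticoid-induced genes, 3 were called higher at ZT12 in wild-type 6-OHDA muscle, Tsc22d3 (1.08), Cebpd (1.30) and Klf9 (0.66), and none in the other 3 arms. That difference between arms was itself called for none of the 10 genes. After 6-OHDA, Ddit4 (1.38) was higher and Tsc22d3 (-0.65) lower in RE-RE muscle, and Mt2 (0.98) was higher and Pdk4 (-0.98) and Sgk1 (-0.49) lower in wild-type muscle. Pdk4 was higher in RE-RE than wild-type 6-OHDA muscle (2.13), and Ddit4 (-1.37) and Cebpd (-0.93) were lower in RE-RE than wild-type sham muscle.

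The genes whose log2 FPKM followed each member most closely over the 23 libraries were sought among 10001 named genes whose log2 FPKM averaged 0 or more. The measure was Pearson's r, which takes in differences of time, treatment and genotype together. The part of each in r was not separated. Usp2 was among the 3 most similar genes for 5 of the 6 members, with r of 0.95 for Per1, Per2 and Per3, and 0.91 for Cry2 and Ciart. Per1 was also close to Arrdc2 (0.94), an arrestin-domain protein, and Glul (0.93), glutamine synthetase. Per2 and Per3 were close to Dbp (0.95 and 0.93) and to Dusp7, a MAP kinase phosphatase (0.95 and 0.93). Ciart was closest to Bhlhe41 (0.93) and had Per3 in its list (0.91). Cry2 was close to Stard3 (0.89), a cholesterol-binding protein, and Slc7a8 (0.89), an amino acid transporter. The list of Cry1 held none of these genes and included Ank1 (0.85), an ankyrin, and Asb2 (0.84), a ubiquitin ligase adaptor of muscle.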

How the data were processed

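RNA was measured by sequencing in 23 libraries of mouse tibialis anterior in 8 groups of genotype, treatment and time. The authors deposited 1 table of log2 FPKM values with 0.01 added before the log, so a gene with no reads stands at -6.64. Per the submitters' processing notes, processing used HISAT2 2.1.0, Trim Galore 0.5.0, edgeR 3.30.0, FastQC 0.11.8 and featureCounts 1.6.2, with build GRCm38; whether a library factor entered the FPKM is not given in the sources used here. FPKM carries no counts, but 86.5% to 94.8% of a library's values of up to 20 reads came out as whole reads within 0.1 with GENCODE M21 exon lengths, and the recovered totals were 0.839 to 1.52 times the read totals that the FPKM unit implies.

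The log2 values were fitted with limma 3.58.1 in R 4.3.3 (trended variance, 8 group means, 12 contrasts). The test took genes that reached an FPKM of 1 in 2 or more libraries, p-values were adjusted by Benjamini-Hochberg over 12820 genes, and a gene was called at an adjusted p under 0.05. Fold changes on the log2(FPKM + 0.01) scale understate the change of low genes. Treatment and genotype effects are means over both times. Tables and figures were made with Python 3.11.15, and the fit was tested on simulated data. Named genes were all 6 members, the 3 genes most like each, and up to 4 called genes per pathway list and comparison with the smallest p. The members and lists were chosen with earlier results of these data known. Alternatives changed the pseudocount, filter, scaling, pooling of the spread, age term, replicate block and libraries. Leaving out 3 RE-RE libraries and running limma-voom on recovered reads were added after the data were seen. Some genes that the naming rule selects are not reported here.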

Additional observations from a re-analysis of the deposited data

How the results depend on the processing

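Of 2496 member values under an alternative, 2336 kept their direction and their side of the threshold, 49 lost a call, 31 gained one and 80 turned sign, of which 2 involved a call. The time differences of Per2 and Ciart in wild-type muscle kept their calls under every alternative in which they were tested. Own totals put the wild-type sham Per1 difference at 2.25 (adjusted p = 0.0523). Differences near 0 and all RE-RE values, with 2 libraries a group, are limited by the spread. The cause of the changes was not tested.

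Members called for time in wild-type 6-OHDA muscle were 2 in place of 4 when genes averaging a log2 FPKM under 1 were dropped. They were 3 in place of 5 in wild-type sham muscle with own totals or that filter. The filter on a mean of at least 1 takes Per2 and Ciart out of the test. Its lower counts, here and below, are therefore genes not tested, with no call lost. Without the 3 RE-RE libraries, 2 in place of 0 were called in RE-RE 6-OHDA muscle. In RE-RE sham muscle 0 in place of 1 were called with log2(FPKM + 1), a mean of at least 1, quantile normalization, the compared groups alone, each genotype alone, weights by genotype, the 3 libraries left out or limma-voom. For 6-OHDA, 2 in place of 1 were called in wild-type muscle with quantile normalization, the compared groups or each genotype alone, weights by genotype or the 3 libraries left out, and in RE-RE muscle 1 in place of 0 with median centring and 4 with the 3 left out. For genotype in sham muscle, 0 in place of 1 were called with log2(FPKM + 1), a mean of at least 1, quantile normalization, the compared groups alone, weights, age or the 3 left out. Leaving out each library gave at least 4 members for time in wild-type 6-OHDA muscle and 2 to 5 in wild-type sham muscle. Member counts also changed for time and 6-OHDA in RE-RE muscle, genotype in sham muscle and the genotype change of the time effect in 6-OHDA muscle. Most of the fits behind those changes left 1 library in a group, so their counts are not given. Over all genes, and apart from leaving out single libraries, 6-OHDA called 0 (weights by genotype) to 4460 in RE-RE muscle and 3005 to 6762 in wild-type muscle. Genotype in sham muscle called 5 to 1332.

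Signs turned without the 3 RE-RE libraries for 6-OHDA in RE-RE muscle (Per1 -1.09, Per2 -0.74, Cry2 -0.27, Ciart -0.11), genotype in sham muscle (Per1 0.21, Per2 0.49, Per3 0.04, Cry2 0.34), the 6-OHDA change of the time effect in RE-RE muscle (Per3 0.60) and the genotype change in sham muscle (Cry1 -0.20). With own totals they turned for 6-OHDA in RE-RE (Per3 0.38, Cry1 0.13) and wild-type muscle (Per3 0.20), time in RE-RE 6-OHDA muscle (Cry1 0.12), genotype in sham muscle (Cry1 -0.16) and the 6-OHDA change in wild-type muscle (Cry1 -0.01). With limma-voom the same 6 were 0.37, 0.12, 0.20, 0.13, -0.15 and -0.02, and Cry1 was at 0.00 for genotype in 6-OHDA muscle and for the genotype change in sham muscle. Quantile normalization gave -0.09 for Per2 and -0.15 for Ciart with 6-OHDA in RE-RE muscle, -0.01 for Cry2 with 6-OHDA in wild-type muscle, -0.02 for Cry1 and 0.01 for Cry2 for genotype in sham muscle, and 0.05 for Per3 for the 6-OHDA change in wild-type muscle. Median centring gave -0.02 for Cry2 with 6-OHDA in wild-type muscle and 0.01 for genotype in sham muscle. Age gave 0.32 for Per3 with 6-OHDA in RE-RE and 0.00 for Cry2 in wild-type muscle, and log2(FPKM + 1) gave -0.01 for Ciart for the genotype change in sham muscle.

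Leaving out each library turned signs for 6-OHDA in RE-RE muscle (-0.36 to 0.93 for Per1, -0.24 to 0.47 for Per2, -0.47 to 0.46 for Per3, -0.03 to 0.44 for Cry2, -0.12 to 0.42 for Ciart) and in wild-type muscle (-0.01 to 0.11 for Cry2). For time it did so in RE-RE 6-OHDA (-0.10 to 0.34 for Cry2) and RE-RE sham muscle (-0.09 to 2.50 for Per1). For genotype it did so in 6-OHDA (-0.48 to 0.11 for Per1, -0.91 to 0.02 for Per3) and sham muscle (-0.54 to 0.16 for Per2, -0.09 to 0.11 for Cry1, -0.25 to 0.21 for Cry2). The 6-OHDA change of the time effect ran from -0.49 to 2.1 for Per1, -0.57 to 0.84 for Per2 and -1.54 to 0.33 for Per3 in RE-RE muscle, and from -0.29 to 0.05 for Per3 in wild-type muscle. The genotype change in sham muscle ran from -2.32 to 0.28 for Per1, -1.43 to 0.06 for Per3, -0.18 to 0.22 for Cry1 and -0.66 to 0.27 for Cry2.

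With the replicate number as a block, 6-OHDA called 0 members in RE-RE and 1 in wild-type muscle, as without it, and 3163 in place of 3446 and 4232 in place of 4458 of all genes. Deviations of libraries with the same number correlated at 0.101 and 0.165 in RE-RE muscle, where each value stands for a mirrored pair of numbers. In wild-type muscle they correlated at -0.123 to 0.0657. Such correlations cannot tell whether a number marks 1 animal, but the ages can in part. In RE-RE muscle the sham and 6-OHDA mice were 10 and 16 weeks old for number 1 and 11 and 12 for number 2. They were 11 and 15 weeks old for number 3 and 11 and 18 for number 4, so no RE-RE number marks 1 animal. In wild-type muscle the ages differed for numbers 1 to 6. For number 7 both were 12 weeks, so a shared animal cannot be told there. Time and genotype comparisons could not be fitted with the block, since numbers were taken within a genotype and none joins their groups.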
